A study of Mus musculus with 2 samples.

Results

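Genes of the interferon system were read in 2 lines of immortal mouse embryonic fibroblasts. The genes were chosen by symbol alone: interferon receptor chains, Stat and Irf transcription factors, the Ifit, Ifitm, Ifi, Oas and Gbp families, and Isg15, Isg20, Bst2, Ddx58, Mx1, Mx2, Usp18, Xaf1 and Rsad2. This gave 76 of the 22711 genes listed in both libraries, all of them autosomal. They comprised 4 receptor genes, 7 Stat genes, 9 Irf genes, 7 Ifitm genes, 3 Ifit genes, 12 Ifi genes, 12 Oas genes, 10 Gbp genes and the 9 genes chosen singly. The symbols of Irf2bp1, Irf2bp2 and Irf2bpl also matched the search for Irf genes, although these 3 encode partners or relatives of partners of IRF2 and not interferon regulatory factors.

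Interferons are secreted proteins that put cells into an antiviral state. Type I interferons bind a receptor made of IFNAR1 and IFNAR2, and interferon gamma binds IFNGR1 and IFNGR2. The receptors activate Janus kinases, which phosphorylate STAT proteins. Under type I interferon, STAT2 and IRF9 act in a complex on interferon-stimulated response elements (ISRE), and under interferon gamma STAT dimers bind gamma-activated sites (GAS). The induced genes include sensors of viral RNA, inhibitors of translation and membrane proteins that block virus entry. Fibroblasts carry these receptors and are a classic source of interferon beta.

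Both lines were hybrids of the mouse strains C57BL/6N (B6) and PWK/PhJ (PWK), grown in serum-containing medium, and the labels' protocols name no interferon and no infection. In the line called B6-Xi the B6 copy of the X chromosome is the inactive one, and its strain is written PWK/PhJ X C57BL/6N. In the line called PWK-Xi the PWK copy is inactive, and its strain is written C57BL/6N X PWK/PhJ. There was 1 library per line, made from polyadenylated RNA by Smart-seq2, so no value below has a replicate check or a test, and line, clone and parental cross cannot be told apart.

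Values are FPKM (fragment number divided by the length of the transcript and the size of the library), listed separately for the B6 and the PWK allele. A total is their sum, and the B6 share is the B6 value as a percentage of it. The summed totals were 285397 FPKM in B6-Xi against 256196 in PWK-Xi, and read depth is unknown. B6-Xi listed 55.4% of all genes at 0 and PWK-Xi 43.2%. Vim, B2m and Ppia, which fibroblasts express, were among the genes at 0 in both, so a 0 says only how a gene is listed. Of 10 fibroblast markers 9 had at least 1 FPKM in both lines, the exception being Vim. Of 13 immune cell markers 11 in B6-Xi and 9 in PWK-Xi were listed at 0. Ptprc, which encodes the leukocyte antigen CD45, was listed at 0 for B6-Xi, with 0.05 FPKM in PWK-Xi. The highest was Cd68, at 1.39 and 3.25 FPKM, and the summed level of the list was 1.56 and 4.81 FPKM.

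The levels in the set ran from a listed 0 to 932 FPKM, with the receptors and several transcription factors at a few FPKM. Of the 76 genes, 41 were listed at 0 in B6-Xi and 23 in PWK-Xi, 20 of them in both. A total of at least 1 FPKM was reached by 25 genes in B6-Xi (32.9%) and by 28 in PWK-Xi (36.8%), against 35.7% and 39.8% of all listed genes. These shares lie close to those of all genes. There were 21 genes listed at 0 in B6-Xi and above 0 in PWK-Xi, and 3 the other way round. Over all 22711 genes, 12584 were listed at 0 in B6-Xi and 9804 in PWK-Xi, 9578 of them in both. As shares, 53.9% of the set were at 0 in B6-Xi and 30.3% in PWK-Xi, against 55.4% and 43.2% of all genes. The imbalance therefore had the same direction over all genes. It was wider in the set, with no test of that difference. Ifitm2 and Ifitm3 alone held 92.3% of the FPKM summed over the 76 genes in B6-Xi and 89.7% in PWK-Xi.

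**Figure D1:**
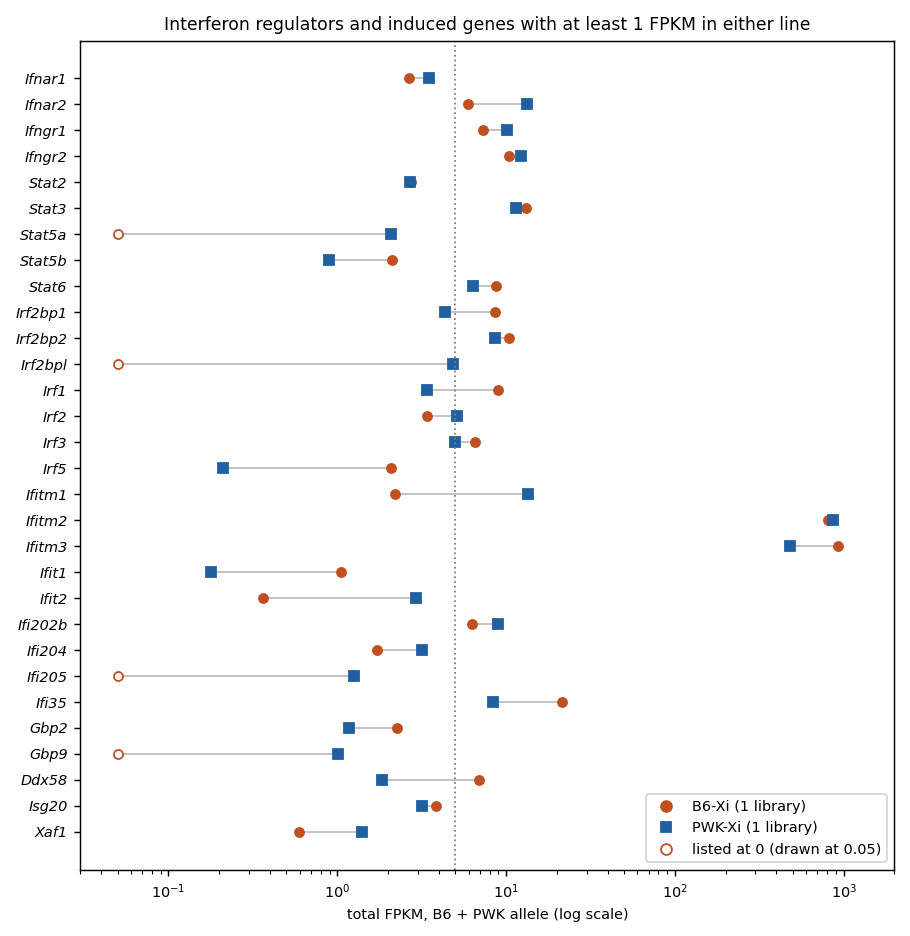
Total FPKM (B6 plus PWK allele, log scale) of 30 of the 31 genes reaching 1 FPKM in either line, by family; circles are B6-Xi, squares PWK-Xi, 1 library each, open symbols are genes listed at 0, and the dotted line marks 5 FPKM. Ifitm2 and Ifitm3 lie between 482 and 932 FPKM, and each of the other genes at or below 21.4 FPKM.

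All 4 receptor genes were above 1 FPKM in both lines. Ifnar1, a chain of the type I interferon receptor, had 2.66 FPKM in B6-Xi against 3.50 in PWK-Xi. Ifnar2, the other chain, had 5.95 and 13.3 FPKM. Ifngr1, which binds interferon gamma, had 7.32 and 10.1 FPKM. Ifngr2, its signaling partner, had 10.5 and 12.3 FPKM. Each of the 4 was thus higher in PWK-Xi as listed, and for Ifnar1, Ifngr1 and Ifngr2 the difference was small. In log2((PWK-Xi + 1)/(B6-Xi + 1)), taken relative to the median of all genes as explained further on, the values were 0.11 for Ifnar1, 0.22 for Ifngr1, 0.02 for Ifngr2 and 0.85 for Ifnar2. Ifnar1, Ifnar2 and Ifngr2 lie together on chromosome 16. Neighbouring genes there had median log2 differences of 0.17 on the same scale. Some 7.89% of the 50-base windows of Ifnar2 transcripts also occur in transcripts annotated to Gm21970, so part of its reads may not be separable from that gene.

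The Stat genes encode factors that carry the signal to the nucleus. Stat3, the factor downstream of interleukin 6 type cytokines, was the highest, with 13.2 FPKM in B6-Xi against 11.5 in PWK-Xi. Stat6, which serves interleukin 4 and 13, had 8.78 and 6.41 FPKM. Stat2, a factor of the type I interferon response, had 2.73 and 2.72 FPKM, nearly the same level in the 2 lines. Stat5b had 2.1 and 0.894 FPKM, while its near copy Stat5a was listed at 0 for B6-Xi, with 2.09 FPKM in PWK-Xi. Of the 50-base windows of Stat5b transcripts 11.0% also occur in Stat5a, so the division of reads between them is uncertain. Stat4, known mainly from lymphocytes, was listed at 0 and had 0.033 FPKM.

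Among the Irf genes, 3 reached 1 FPKM in both lines. Irf1, an activator induced by interferon gamma, had 8.99 FPKM in B6-Xi against 3.39 in PWK-Xi. Irf3, the factor that viral sensing activates, had 6.51 and 4.96 FPKM. Irf2, known as an antagonist of IRF1, had 3.42 and 5.13 FPKM. The order of Irf1 and Irf2 was therefore different in the lines, with Irf1 above Irf2 in B6-Xi and below it in PWK-Xi. Irf5 had 2.07 and 0.212 FPKM. Irf7, itself strongly interferon-induced, was listed at 0 for B6-Xi, with 0.223 FPKM in PWK-Xi. Irf9, the DNA-binding partner of STAT2, was listed at 0 in both lines. Irf4 and Irf8, factors of lymphoid and myeloid cells, were listed at 0 for B6-Xi, with 0.029 and 0.236 FPKM in PWK-Xi. Among the genes outside the factor family itself, Irf2bp2 had 10.4 and 8.60 FPKM, Irf2bp1 had 8.60 and 4.37 FPKM, and Irf2bpl was listed at 0 and had 4.83 FPKM. Irf2bpl lies on chromosome 12, where the median B6 share of genes in B6-Xi was 0% and the median log2 difference between the lines was 0.77.

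A group of the induced genes was listed at 2.95 FPKM or less. The Oas, Gbp and Ifit families with Isg15, Mx1, Mx2, Rsad2, Usp18 and Bst2 made up 31 genes, a grouping made after the values were seen. It leaves out induced genes with higher values, among them Irf1, Ifi35, Ddx58 and Ifitm3, so its low levels follow in part from the choice. Of the 31 genes, 27 (87.1%) were under 1 FPKM in both lines, against 58.4% of all listed genes. The highest values were 2.27 and 2.95 FPKM. A listed 0 was given for 23 (74.2%) in B6-Xi and 13 (41.9%) in PWK-Xi, against 55.4% and 43.2% of all genes, so in PWK-Xi the share at 0 was close to that background. As many of these values are exact zeros, the levels say how the genes are listed and not that they are absent. Isg15, a ubiquitin-like protein gene, was listed at 0 for B6-Xi, with 0.146 FPKM in PWK-Xi. Rsad2, which encodes the antiviral enzyme viperin, and Bst2, which encodes the virion-tethering protein tetherin, were listed at 0 in both. Mx1, an antiviral GTPase gene, had 0.086 FPKM in B6-Xi but a listed 0 in PWK-Xi, and Mx2 was listed at 0 and had 0.210 FPKM. Usp18, which encodes a protease that removes ISG15, was listed at 0 and had 0.751 FPKM. Gbp2 was the 1 gene of the 31 that reached 1 FPKM in both lines. In bulk libraries such as these, fewer expressing cells and less RNA per cell cannot be told apart.

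Within these families the levels were as follows. Some products of the Oas family, though not all, make the second messenger that activates RNase L. Of the 12 Oas genes, Oas1b was above 0 in B6-Xi (0.189 FPKM). In PWK-Xi 6 were above 0, the highest being Oasl1 at 0.793 FPKM. The Oas1 genes are near copies of each other, and their separate values are uncertain. Among the 10 guanylate-binding protein genes, which act against intracellular pathogens, Gbp2 had 2.27 FPKM in B6-Xi against 1.17 in PWK-Xi. Gbp9 was listed at 0 and had 1.01 FPKM. The Ifit genes encode proteins that bind foreign RNA. Ifit1 had 1.05 and 0.178 FPKM and Ifit2 had 0.362 and 2.95 FPKM, so that these neighbours on chromosome 19 differed in opposite directions as listed. Neither reached 1 FPKM in both lines, so the directions rest on low values of single libraries. Ifit3 was listed at 0 and had 0.308 FPKM.

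A smaller set of induced genes was above 5 FPKM. Ifi35, whose product binds the related protein NMI, had 21.4 FPKM in B6-Xi against 8.41 in PWK-Xi, and 10.4% of its 50-base windows occur in Gm11626. Ddx58, the gene of the RNA sensor RIG-I, had 6.88 and 1.83 FPKM. Ifih1, the gene of the related sensor MDA5, stayed at 0.807 and 0.325 FPKM. These 3 genes were all lower in PWK-Xi as listed. Ifi202b had 6.26 and 8.95 FPKM. It belongs to the cluster of Ifi200 genes on chromosome 1, which encode DNA-binding proteins, and it is known for expression that differs between laboratory strains. Its relatives Ifi204 (1.73 and 3.18 FPKM) and Ifi205 (listed at 0 and 1.26 FPKM) were lower, and 20% and 18.6% of their 50-base windows occur in another gene, whereas 0% of those of Ifi202b do. Isg20, an exonuclease gene, had 3.85 and 3.16 FPKM, and Xaf1, a gene of the apoptosis pathway, had 0.594 and 1.40 FPKM.

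The Ifitm genes encode small membrane proteins that hinder the fusion of viruses with cell membranes, and 2 of the 7 were abundant. Ifitm3 had 932 FPKM in B6-Xi, of which 384 FPKM came from the B6 and 548 FPKM from the PWK allele. In PWK-Xi it had 482 FPKM, with 236 FPKM from B6 and 246 FPKM from PWK. Both alleles were therefore lower in PWK-Xi, the PWK allele by more. Ifitm2 had 806 FPKM in B6-Xi (463 FPKM from B6 and 343 FPKM from PWK) and 865 FPKM in PWK-Xi (483 and 382 FPKM). Ifitm3 was thus the higher of the pair in B6-Xi and the lower in PWK-Xi, with a ratio of Ifitm3 to Ifitm2 of 1.16 and 0.557. By rank, Ifitm3 was the 52nd highest gene of B6-Xi and the 89th of PWK-Xi, and Ifitm2 the 57th and the 38th. Ifitm1 was far lower, at 2.19 FPKM for B6-Xi, where the B6 allele was listed at 0, against 13.6 FPKM for PWK-Xi, of which 8.72 FPKM came from B6. Ifitm5, a bone gene, and Ifitm6 were listed at 0 for B6-Xi, with 0.359 and 0.127 FPKM in PWK-Xi, and Ifitm7 and Ifitm10 were listed at 0 in both. Of the 50-base windows of Ifitm2 transcripts 48.5% also occur in another annotated gene, most of them in Gm45717, against 10.0% for Ifitm3 and 5.02% for Ifitm1. The level of Ifitm2 may therefore hold reads of, or lack reads given to, such genes.

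The annotated promoters of Ifitm2 and Ifitm3 are shown because these 2 genes dominated the level of the whole set, and those of Isg15 and Irf1 beside them because both are classic targets, of ISRE and GAS type respectively, at far lower levels here. Each window runs from 250 bases before to 50 bases after the annotated start, 5′ to 3′ along the gene, from RefSeq on build GRCm38.p6. This is not the build mm9 of the deposited values. Capitals mark matches to the ISRE core on either strand, which is GAAA, any 2 bases and GAAA again, and to the GAS core TTCNNNGAA, which reads the same on both strands. Matches may overlap, and then form 1 run of capitals.
Ifitm2, chr7:140955912-140956211, minus strand: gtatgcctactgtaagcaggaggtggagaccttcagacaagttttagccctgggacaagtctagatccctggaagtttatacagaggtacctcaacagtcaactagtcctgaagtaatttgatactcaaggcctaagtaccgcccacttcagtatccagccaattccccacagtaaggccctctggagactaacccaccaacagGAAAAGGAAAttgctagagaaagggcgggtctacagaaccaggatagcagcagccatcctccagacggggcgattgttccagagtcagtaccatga
Ifitm3, chr7:141010695-141010994, minus strand: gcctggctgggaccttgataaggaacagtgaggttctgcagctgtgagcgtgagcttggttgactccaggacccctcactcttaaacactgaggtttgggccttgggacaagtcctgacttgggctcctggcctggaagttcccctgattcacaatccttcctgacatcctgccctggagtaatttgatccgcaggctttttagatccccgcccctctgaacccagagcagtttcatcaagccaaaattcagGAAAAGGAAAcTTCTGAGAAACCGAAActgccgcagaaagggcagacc
Isg15, chr4:156200769-156201068, minus strand: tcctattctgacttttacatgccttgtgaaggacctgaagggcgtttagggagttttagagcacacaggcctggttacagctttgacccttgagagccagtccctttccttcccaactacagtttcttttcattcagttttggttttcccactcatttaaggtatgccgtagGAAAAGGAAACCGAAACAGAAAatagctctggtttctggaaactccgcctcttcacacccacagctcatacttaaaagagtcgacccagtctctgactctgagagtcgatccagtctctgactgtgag
Irf1, chr11:53769764-53770063, plus strand: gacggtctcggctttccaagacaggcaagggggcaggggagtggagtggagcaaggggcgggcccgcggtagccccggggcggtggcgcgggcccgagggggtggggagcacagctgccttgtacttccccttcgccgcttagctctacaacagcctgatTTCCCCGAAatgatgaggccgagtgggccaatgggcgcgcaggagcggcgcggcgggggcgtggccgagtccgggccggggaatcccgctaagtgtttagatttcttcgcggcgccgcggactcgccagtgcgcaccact

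Ifitm2 had 1 ISRE match, beginning 46 bases before the start. Ifitm3 had 2, beginning at positions 3 and 20 after the start, with a GAS match between them that begins at position 14 and overlaps the second of these. Isg15 had 3 overlapping ISRE matches, the most distant beginning 78 bases before the start, and yet was listed at 0 for B6-Xi, with 0.146 FPKM in PWK-Xi. Irf1 had 1 GAS match in the window shown, which is 1 of its 2, beginning 90 bases before the start, and no ISRE match. A match is a description of letters and not a binding site.

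Over the whole set, RefSeq promoter windows were matched by symbol for 58 of the 76 genes. An ISRE core was found for 22 of the 58 (37.9%), against 3.87% of the 16296 listed genes with a window and 3.44% of all 32851 windows. A GAS core was found for 16 of the 58 (27.6%), against 9.16% of listed genes and 8.30% of windows. The set was chosen by names that in many cases record induction by interferon, so these shares describe the set. The ISRE core was not more frequent among the more highly expressed genes of the set. Of the matched genes reaching 1 FPKM in either line 8 of 28 had it, and among those under 1 FPKM in both lines 14 of 30 had it. For the GAS core the counts were 10 of 28 and 6 of 30. Some genes have several windows, and a gene was counted where any of them held the motif.

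**Figure D2:**
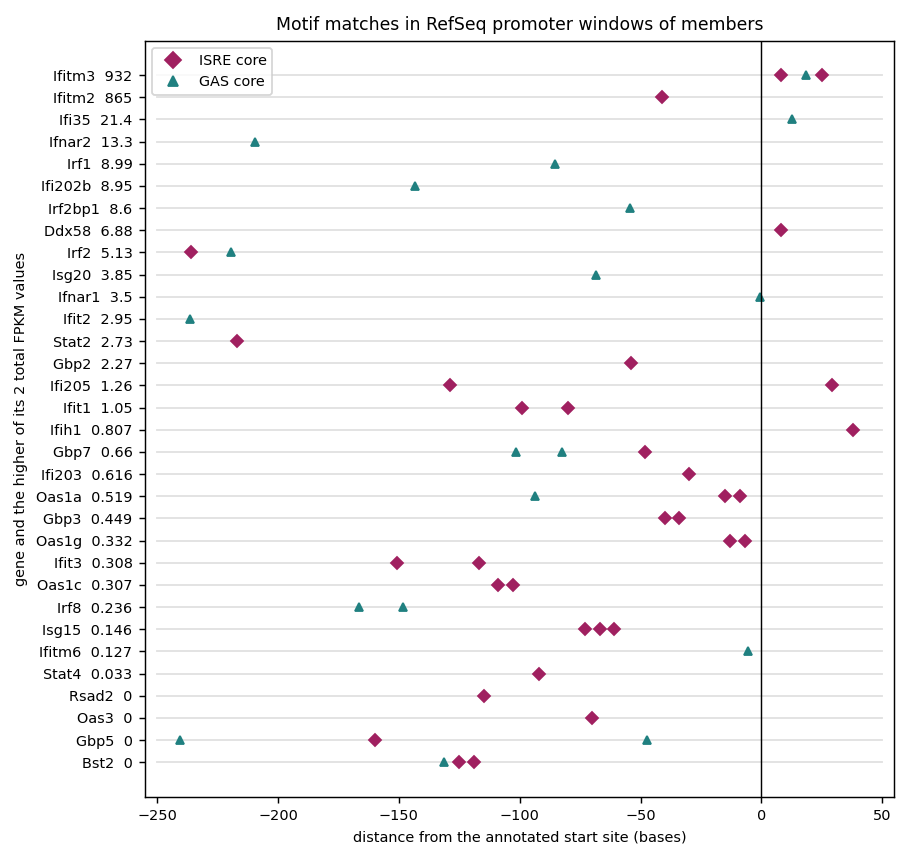
Positions of ISRE (diamonds) and GAS (triangles) core matches relative to the annotated start in the RefSeq windows of genes with at least 1 match, ordered by the higher of their 2 total FPKM values, which stands beside each name. Genes with ISRE matches run from Bst2, Gbp5, Oas3 and Rsad2, listed at 0 in both lines, to Ifitm3 with 932 FPKM.

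The lines were then compared in total FPKM. Of the 76 genes, 17 had at least 5 FPKM in either line and entered this comparison. Of these, 10 reached 5 FPKM in both lines, and the others entered through 1 line, so the counts describe these libraries. Ifitm1 and Ifnar2 were at least 2-fold higher in PWK-Xi and Ddx58, Ifi35 and Irf1 at least 2-fold lower, on the log2(value + 1) scale, which understates the change of low genes. All 5490 genes passing this minimum gave a background of 17.8% at 2-fold higher or more and 5.83% at 2-fold lower or more. The 2 higher genes were 11.8% of the 17, below that background, and the 3 lower ones 17.6%, above it, with no test of either. Of the 5490 genes, 5241 were above 0 in both lines. Their median log2 difference, called the median of all genes here, was 0.19. Log2 values here are given relative to it, and on that footing 14% of all genes rank as 2-fold higher and 8.67% as 2-fold lower, with 1 and 5 of the 17 (5.88% and 29.4%). Ifnar2 then lay within 2-fold, and Ifitm3 and Irf2bp1 joined the lower ones.

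The relative log2 differences were -1.67 for Ddx58, -1.45 for Ifi35, -1.38 for Irf1, -1.14 for Ifitm3, -1.03 for Irf2bp1 and 2.00 for Ifitm1. Ifi35 and Irf1 lie on chromosome 11, and the median of their 20 nearest measured genes was -0.46 and -0.40, so their surroundings were also lower in PWK-Xi. For Ddx58 on chromosome 4 the neighbours had 0.33, the opposite direction. Ifitm1 and Ifitm3 lie in the same cluster on chromosome 7, whose neighbours had -0.37, and yet differed in opposite directions. The part of these surroundings in the differences was not tested. Ifnar2 had 0.85, as given above. Stat6 (-0.60), Irf3 (-0.53), Irf2bp2 (-0.45) and Stat3 (-0.38) lay below the median of all genes, and Ifi202b (0.26) and Irf2 (0.28) above it. Over the 17 genes the median was -0.38 relative to all genes, and -0.19 without that shift, against 0.23 for all genes tested. The sign of the unshifted median turned with the setting: it was 0.10 over 31 genes with a minimum of 1 FPKM in either line, 0.19 over 56 with none, and 0.11 over 18 with each line divided by its summed FPKM. The medians of all genes under these settings were 0.23, 0.17 and 0.39.

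**Figure D3:**
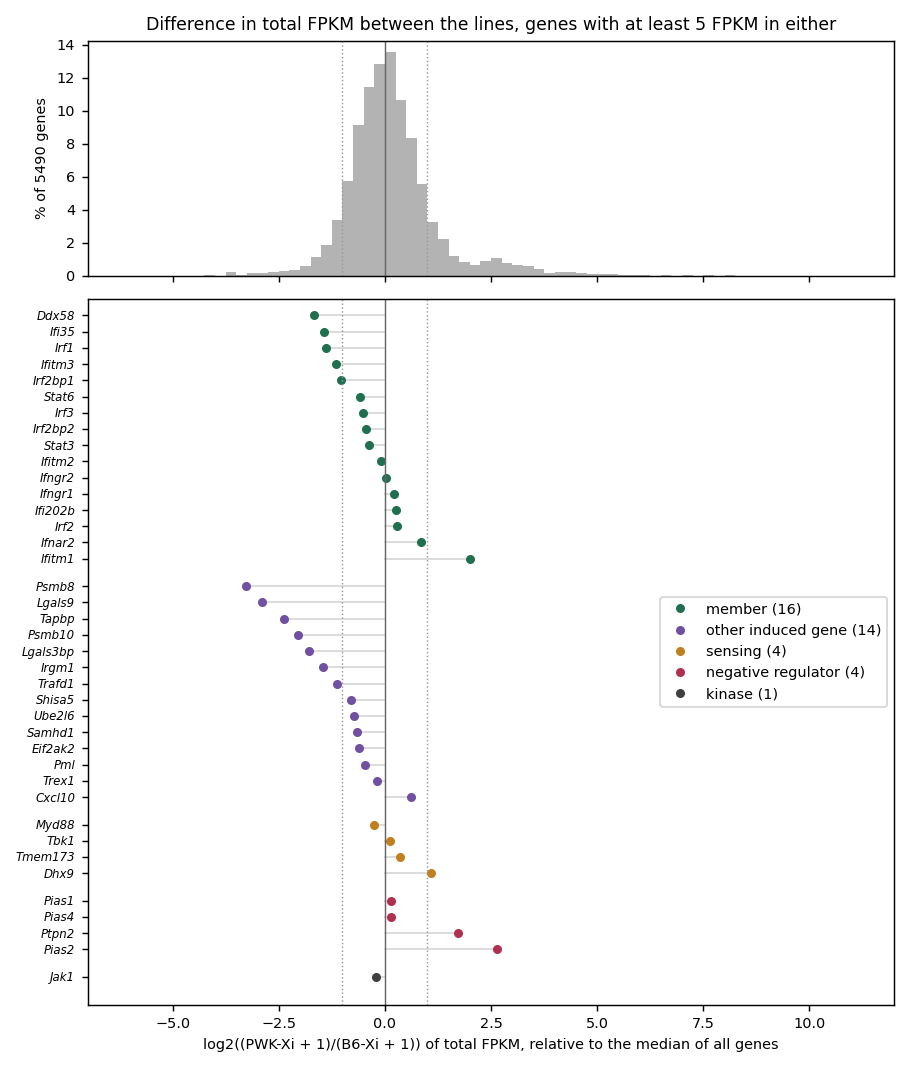
Upper panel: distribution of the relative log2 difference in total FPKM (PWK-Xi over B6-Xi, pseudocount 1) over the 5490 genes at 5 FPKM or more in either line; the x axis leaves out no gene. Lower panel: the same value for 16 of the 17 genes of the set and 23 other pathway genes, with dotted lines at 2-fold; Psmb8 is lowest at -3.27 and Pias2 highest at 2.65.

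Other genes of the pathway were read from a list of 75 that are not in the set, of which 23 had at least 5 FPKM in either line. Of these 23, 3 stood 2-fold or more above and 6 stood 2-fold or more below their B6-Xi level in PWK-Xi (13.0% and 26.1%), against 17.8% and 5.83% of all genes. Only 11 of the 23 reached 5 FPKM in both lines, and the others entered through 1 line, where they are high, so these counts describe the libraries. With 5 FPKM required in both lines, 1 of 11 was higher and 3 were lower, against 7.98% and 4.19% of all 3960 such genes. Relative to the median of all genes the counts over the 23 were 3 and 7, the added gene being Trafd1. All 6 belonged to the 14 listed as other induced genes, and the first 3 named here act in antigen processing. They were Psmb8 (27.3 FPKM in B6-Xi against 2.37 in PWK-Xi) and Psmb10 (46.0 and 12.05 FPKM), both immunoproteasome subunits, Tapbp (26.9 and 5.13 FPKM), which loads MHC class I, Lgals9 (36.8 and 4.85 FPKM), a galectin, Lgals3bp (79.9 and 25.8 FPKM), a secreted galectin-binding glycoprotein, and Irgm1 (5.22 and 1.58 FPKM), an immunity-related GTPase. Psmb8 and Lgals9 were known from earlier results of these data when the list was written, so the list is not independent of them. The neighbours of Lgals3bp, at the end of chromosome 11, had a median of -1.04, beside -1.79 for the gene itself. For Psmb10 on chromosome 8 the neighbours had 0.02, beside -2.04 for the gene. The neighbours of Psmb8, Tapbp, Irgm1 and Lgals9 had -0.53, -0.46, -0.41 and -0.39, so these surroundings were also lower in PWK-Xi. Their part in the differences was not tested. Within 2-fold on the log2(value + 1) scale lay Shisa5 (43.2 and 28.2 FPKM), Trex1, which degrades cytosolic DNA (14.5 and 14.5 FPKM), Ube2l6, the conjugating enzyme for ISG15 (11.8 and 7.76 FPKM), Eif2ak2, the gene of the kinase PKR (6.82 and 4.83 FPKM), Samhd1 (6.38 and 4.33 FPKM), Pml (5.59 and 4.44 FPKM), Trafd1 (6.64 and 2.99 FPKM) and Cxcl10, a chemokine gene (3.10 and 6.20 FPKM). Trafd1 and Cxcl10 stood at this limit: without a pseudocount their log2 differences were -1.15 and 1.001, both past 2-fold, and Trafd1 had -1.13 relative to the median of all genes. All 14 but Cxcl10 were below the median of all genes on the relative scale.

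Ligands, kinases, negative regulators and sensors outside the set gave 9 genes above the 5 FPKM minimum. Of these, 6 lay within 2-fold and 3 were at least 2-fold higher in PWK-Xi (33.3%, against 17.8% of all genes), with no test of the difference. Of the 3, Ptpn2 and Pias2 reached 5 FPKM in PWK-Xi only, where they are high, so this share describes the libraries. The genes of interferon beta and interferon gamma, Ifnb1 and Ifng, were listed at 0 in both lines. Jak1, the kinase shared by both receptors, had 27.2 FPKM in B6-Xi against 27.0 in PWK-Xi. The kinase genes Jak2 and Tyk2 were below the minimum, at 3.07 and 3.41 FPKM and at 1.53 and 1.06 FPKM. Of the 4 negative regulators above the minimum, Ptpn2, a phosphatase that acts on JAK and STAT proteins, had 2.92 and 13.7 FPKM and Pias2, a SUMO ligase gene, had 1.01 and 13.4 FPKM, both at least 2-fold higher in PWK-Xi. Pias1 (4.33 and 5.69 FPKM) and Pias4 (8.88 and 11.5 FPKM) lay within 2-fold. Among the 4 genes of nucleic acid sensing above it, the helicase gene Dhx9 was higher in PWK-Xi (5.34 and 14.3 FPKM). Tmem173, the gene of STING (14.5 and 21.5 FPKM), Myd88 (9.65 and 9.13 FPKM) and Tbk1 (4.09 and 5.28 FPKM) lay within 2-fold.

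Allelic shares were read for the 22 genes of the set that reached 1 FPKM in each line. The median of their B6 shares came to 50.0% for B6-Xi and 48.2% for PWK-Xi, beside 50.0% and 52.7% for all 7427 autosomal genes measured the same way. Shares moved in coarse steps, and 11 of the 22 in B6-Xi and 3 in PWK-Xi matched, to within 0.001 points, a ratio of whole numbers whose denominator did not exceed 10. With depth unknown, no interval could be given. The share differed between the lines by at least 20 points for 7 of the 22, or 31.8%, against 34.6% of all autosomal genes, so the set was no richer in such genes than the background. It was higher in PWK-Xi for Ifitm1 (0% in B6-Xi and 64.3% in PWK-Xi), Isg20 (25% and 77.3%), Stat6 (0% and 46.7%) and Ifnar2 (24.0% and 45.3%). It was lower for Gbp2 (85.7% and 36.4%), Stat2 (70.6% and 39.5%) and Ddx58 (60% and 34.1%).

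The receptor genes had B6 shares near those of the genes around them. B6 shares in B6-Xi were 35.6% for Ifnar1, 24.0% for Ifnar2 and 32.5% for Ifngr2, and the median of chromosome 16 was 33.3%. In PWK-Xi the 3 genes had 43.3%, 45.3% and 43.2%, and the chromosome had 41.0%. Ifngr1, on chromosome 10, had 70.0% in B6-Xi, as did the median of its 20 nearest measured genes, and 55.1% in PWK-Xi beside 51.6%. All 3 chains on chromosome 16 thus leaned to PWK in both lines and Ifngr1 to B6 in both. Of the 22 genes, 10 (B6-Xi) and 16 (PWK-Xi) fell within 10 points of the median of their neighbours, against 50.2% and 64.6% of all autosomal genes.

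Ifi202b stood apart from its neighbours in both lines. Its listed FPKM were all of the PWK allele, at 6.26 in B6-Xi against 8.95 in PWK-Xi. The B6 share of Ifi202b was thus 0% in both, while its neighbours had median B6 shares of 52.1% and 68.9%. As above, a 0 says only how the allele is listed. No other gene of the 22 was at most 10% or at least 90% B6 in both lines, a state found for 1.06% of all autosomal genes. The nearby Ifi204 had 33.3% and 49.0%. In B6-Xi, Stat6 (8.78 FPKM) and Ifitm1 (2.19 FPKM) were also at 0% B6. These 3 of 22 compare with 13.6% of autosomal genes at most 10% or at least 90% B6 in that line, and Ifi202b alone of 22 with 2.14% in PWK-Xi. Stat6 was at 0% although its neighbours on chromosome 10 had 54.5%. Ifitm2 and Ifitm3, with the highest levels, had B6 shares of 57.4% and 41.2% in B6-Xi and of 55.8% and 48.9% in PWK-Xi, so that both alleles contributed to each gene in each line.

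**Figure D4:**
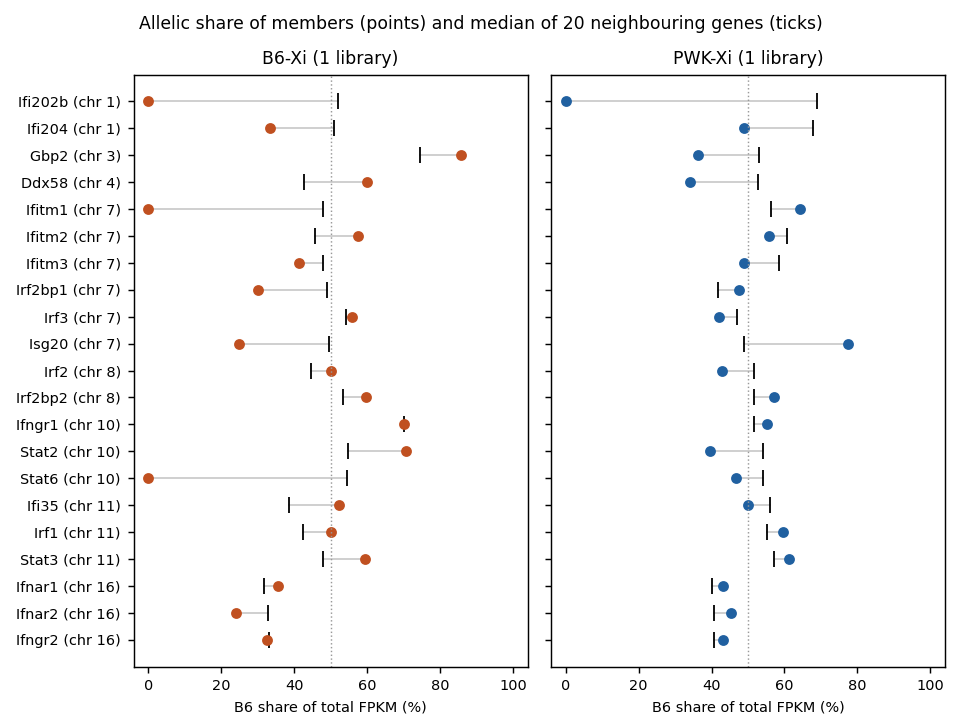
B6 share (percent of total FPKM) of 21 of the 22 genes at 1 FPKM or more in both lines, ordered by chromosome, in B6-Xi (left) and PWK-Xi (right); points are the genes, ticks the median of the 20 nearest genes at 1 FPKM or more in both lines. Ifi202b is at 0% in both panels while its ticks stand at 52.1% and 68.9%, and the chromosome 16 receptor genes lie between 24.0% and 45.3%.

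Among the other pathway genes at 1 FPKM or more in both lines, which numbered 41, the median B6 share was 50.0% and 53.9%. Lgals3bp had 7.66% in B6-Xi and 7.48% in PWK-Xi, although its neighbours had 20% and 55.4%. Lgals9 had 88.9% and 89.6%, and its neighbours 43.1% and 54.2%. These 2 genes thus kept nearly the same uneven share in both lines while their totals differed, Lgals3bp on the PWK and Lgals9 on the B6 side. Ube2l6 had 100% and 64.3%, beside neighbours at 69.8% and 51.7%. Jak1 had 60.7% and 59.7%.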

How the data were processed

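The authors deposited, for each of 2 libraries, FPKM values of 22711 genes with 1 column per allele, per the file headers. Per the submitters' processing notes, StringTie 2.1.1, HISAT2 2.2.0 and Trim Galore 0.6.4 were used on build mm9. Neither the assignment of reads to strains nor their sharing among gene copies is described in these notes or the labels. FPKM are no counts, and the steps of the low values gave no whole reads, so no depth, interval or test is given. Totals were compared as log2((PWK-Xi + 1)/(B6-Xi + 1)), called at 2-fold, where either line had 5 FPKM or more. Shares used at least 1 FPKM in both lines. Neighbours were 10 such genes on each side (for total FPKM, 10 genes at 5 FPKM or more in either line and above 0 in both), ordered by RefSeq GRCm38.p6, to which 21395 symbols matched directly and 1176 by a synonym (140 unmatched). No deposited value was moved between builds. Windows of 50 bases came from GENCODE M21 transcripts. Genes named were those with at least 5 FPKM in either line, receptors, Stat and Irf genes at any level, and the highest of each family (results of 2 genes of the set, which stay in all counts and medians, are not reported here); others were named after their values were seen, among them the low induced genes, Jak2 and Tyk2. Members and lists were chosen with earlier results of these data known. Software was pandas 2.3.3 and numpy 2.4.6 on Python 3.11.15, with figures by matplotlib 3.10.9.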

Additional observations from a re-analysis of the deposited data

How the results depend on the processing

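Of 54 alternative values of the counts and medians, 33 stayed close to the reported ones (counts within 1.5 times, median log2 within 0.1, median share within 5 points). With a minimum of 1 FPKM in either line, or none, 7 genes of the set (of 31 and 56) and 6 pathway genes (of 49 and 61) were at least 2-fold higher, against 18.1% and 13.0% of all genes. At least 2-fold lower in each of these settings were 4 genes of the set and 8 pathway genes, against 4.84% and 3.48% of all genes. The median log2 of the set changed sign, to 0.10 and 0.19, and dividing each line by its summed FPKM gave 0.11; all genes had 0.23, 0.17 and 0.39. Relative to the median of all genes, 1 gene was higher and 5 lower, with a median of -0.38. Without the 9 autosomes of skewed median B6 share, 1 of 7 genes was higher and 0 lower. Of 12 pathway genes 2 were higher and 3 lower, and of all genes 14.3% and 6.29%. With at least 5 FPKM in both lines, chosen after seeing the data, 1 of 10 genes was higher, 1 lower and the median -0.043. Of 11 pathway genes 1 was higher and 3 lower, and of all genes 7.98% and 4.19%, with a median of 0.12. Share differences of 20 points were found for 2 of 10 genes at 5 FPKM in both lines, 12 of 32 with no minimum, and 2 of 8 without the skewed autosomes. The 34.6% of all autosomal genes belongs to the minimum of 1 FPKM. No such share is given for these 3 settings, so their counts are not compared with a background. Why the values moved was not tested, beyond the change in the genes tested. Of 160 values for single genes none turned direction past 2-fold, and 2 moved by over 1.5 times, both of Pias2. Without the shift to the median of all genes, its log2 difference was 2.84 with the pseudocount of 1. It was 3.61 with a pseudocount of 0.1 FPKM and 3.73 with none. No paired analysis was possible because each line has 1 library and the result comes from no test. Read depth is unknown, so shares and levels near 1 FPKM have no stated precision.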
